A study of Caenorhabditis elegans with 123 samples.

Results

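Fast-decaying maternal transcripts were defined on wild-type embryos of Caenorhabditis elegans as messenger RNAs that were abundant at the 4-cell stage and much lower soon afterwards. For each gene with 1 symbol, the brightest probe set by its mean over all arrays was taken. A gene was a member if the mean log2 level of the N2 arrays was at least 7 at 0 min and lay at least 1.5 above their mean at 41 min. The rule gave 67 of 17118 genes, out of 1180 genes with a level of at least 7 at 0 min. The members were therefore chosen by their N2 values at 0 and 41 min, and these values are a description with no test. Just inside the limit on the fall were T06D8.9 (1.51), T24H10.4 (1.51) and prx-14 (1.52), and just outside were his-74 (1.48), lin-24 (1.48) and R04D3.3 (1.48). Just inside the limit on the level were ctns-1 (7.03), orc-1 (7.04) and K08F4.3 (7.06), and just outside were pgl-1 (6.99), osgn-1 (6.96) and C48B4.9 (6.94). No filter on low values was used, so all 67 members were tested in every comparison outside the rule.

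The first embryonic divisions run on RNA and protein that the mother laid down in the oocyte. Many of these maternal RNAs are removed while the embryo's own genes come on, and in C. elegans a class of them is lost from the somatic cells and kept in the germline blastomeres. PIE-1, a zinc finger protein, holds transcription off in those germline blastomeres. MEX-3 is an RNA-binding protein that represses translation of pal-1 in anterior cells, PAL-1 is a caudal-type homeodomain protein of posterior fates, and SKN-1 is a transcription factor needed for the fate of the EMS blastomere.

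Embryos of 4 genotypes, staged at the 4-cell stage (0 min) and kept at 22 °C, were measured on Affymetrix arrays at 10 times, of which 0, 23, 41, 53 and 186 min are used most. The wild type was the strain N2 (34 arrays). The mutant groups were pie-1(zu154) embryos (27 arrays), pie-1(zu154) embryos with pal-1(RNAi), here pie-1/pal-1 (34 arrays), and mex-3(zu155) embryos with skn-1(RNAi), here mex-3/skn-1 (28 arrays). Each of the 40 groups held 2 to 4 arrays. The labels do not say whether replicates came from separate collections, so the p-values rest on a spread between arrays that may be technical. In whole embryos, fewer cells with an RNA and less of it per cell cannot be told apart.

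None of the targeted genes was a member. At 0 min mex-3 had a mean of 3.51 in mex-3/skn-1 embryos and pie-1 of 3.51 in pie-1 embryos, against 8.37 and 7.98 in N2, while skn-1 was dim in N2 already (4.53, and 3.60 in mex-3/skn-1). The pal-1 RNA did not follow the RNAi label on every array. It was 4.95 to 5.36 at 0 min in pie-1/pal-1 embryos, but 10.97 and 12.21 on replicates 1 and 2 at 41 min, and 12.49 on replicate 3 of pie-1 at 53 min, which carries no RNAi label. Of 20 measured genes of the mother's body or of sperm none reached 7 at 0 or 41 min in any genotype, and their medians were 3.23 to 3.37. The 5 genes of later embryonic fates had medians of 3.27 to 3.54. Every scan day held arrays of 1 genotype, so genotype and scan day cannot be told apart, and 26 pie-1 arrays had no description file. Of 6 arrays that stood apart from the mean of their groups over bright probe sets, 2 enter the comparisons of 0 and 41 min: replicate 5 of mex-3/skn-1 at 0 min and replicate 1 of pie-1/pal-1 at 41 min.

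The members held regulators and building materials of the egg. In N2 their level at 0 min ran from 7.03 to 10.95, with a median of 8.12, and the fall to 41 min ran from 1.51 to 2.58, with a median of 1.74. The 12 largest falls were those of cey-2 (2.58), T21C9.13 (2.57), puf-5 (2.34), F35C11.5 (2.30), marc-3 (2.28), W05F2.3 (2.28), oma-2 (2.27), lbp-9 (2.23), Y71G12B.10 (2.20), cyk-7 (2.19), mcu-1 (2.16) and srdf-3 (2.15). Among these cey-2 encodes a Y-box RNA-binding protein, puf-5 a Pumilio-family translational repressor, oma-2 a zinc finger protein of oocyte maturation, marc-3 a RING-type ubiquitin ligase, lbp-9 a lipid-binding protein and mcu-1 the mitochondrial calcium uniporter. A role was given by general knowledge to 51 members, after the values had been seen. RNA regulators and germ cell proteins made up 10: cey-2, cey-3, puf-3, puf-5, puf-11, oma-2, nos-1 of the Nanos family, daz-1 of the DAZ family, mip-1 of germ granules and grif-1. Genes of the eggshell and egg activation made up 5: the chondroitin proteoglycan genes cpg-1 and cpg-2, the chitin-binding gene cbd-1, the nucleotide-sugar transporter gene sqv-7 and marc-3. Chromosomes, division, cytoskeleton and nuclear import had 8, among them him-3 of the meiotic chromosome axis, mesp-1 of the meiotic spindle, the replication origin gene orc-1, profilin (pfn-1) and importin alpha (ima-2). Protein folding, translocation and proteolysis had 10, such as the cyclophilins cyn-3 and cyn-7, hsp-110, the co-chaperone gene daf-41, the translocon genes sec-61.A and sec-61.B and the proteasome gene pas-1. Membrane traffic and the lysosome had 4 (rab-6.1, arl-8, vha-12 and ctns-1). Metabolism, mitochondria and peroxisomes had 14, among them glycogenin (gyg-2), the malate dehydrogenases mdh-1 and mdh-2, glutamine synthetase (gln-5) and uridine phosphorylase (upp-1), and 16 members were left without a role.

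**Figure D1:**
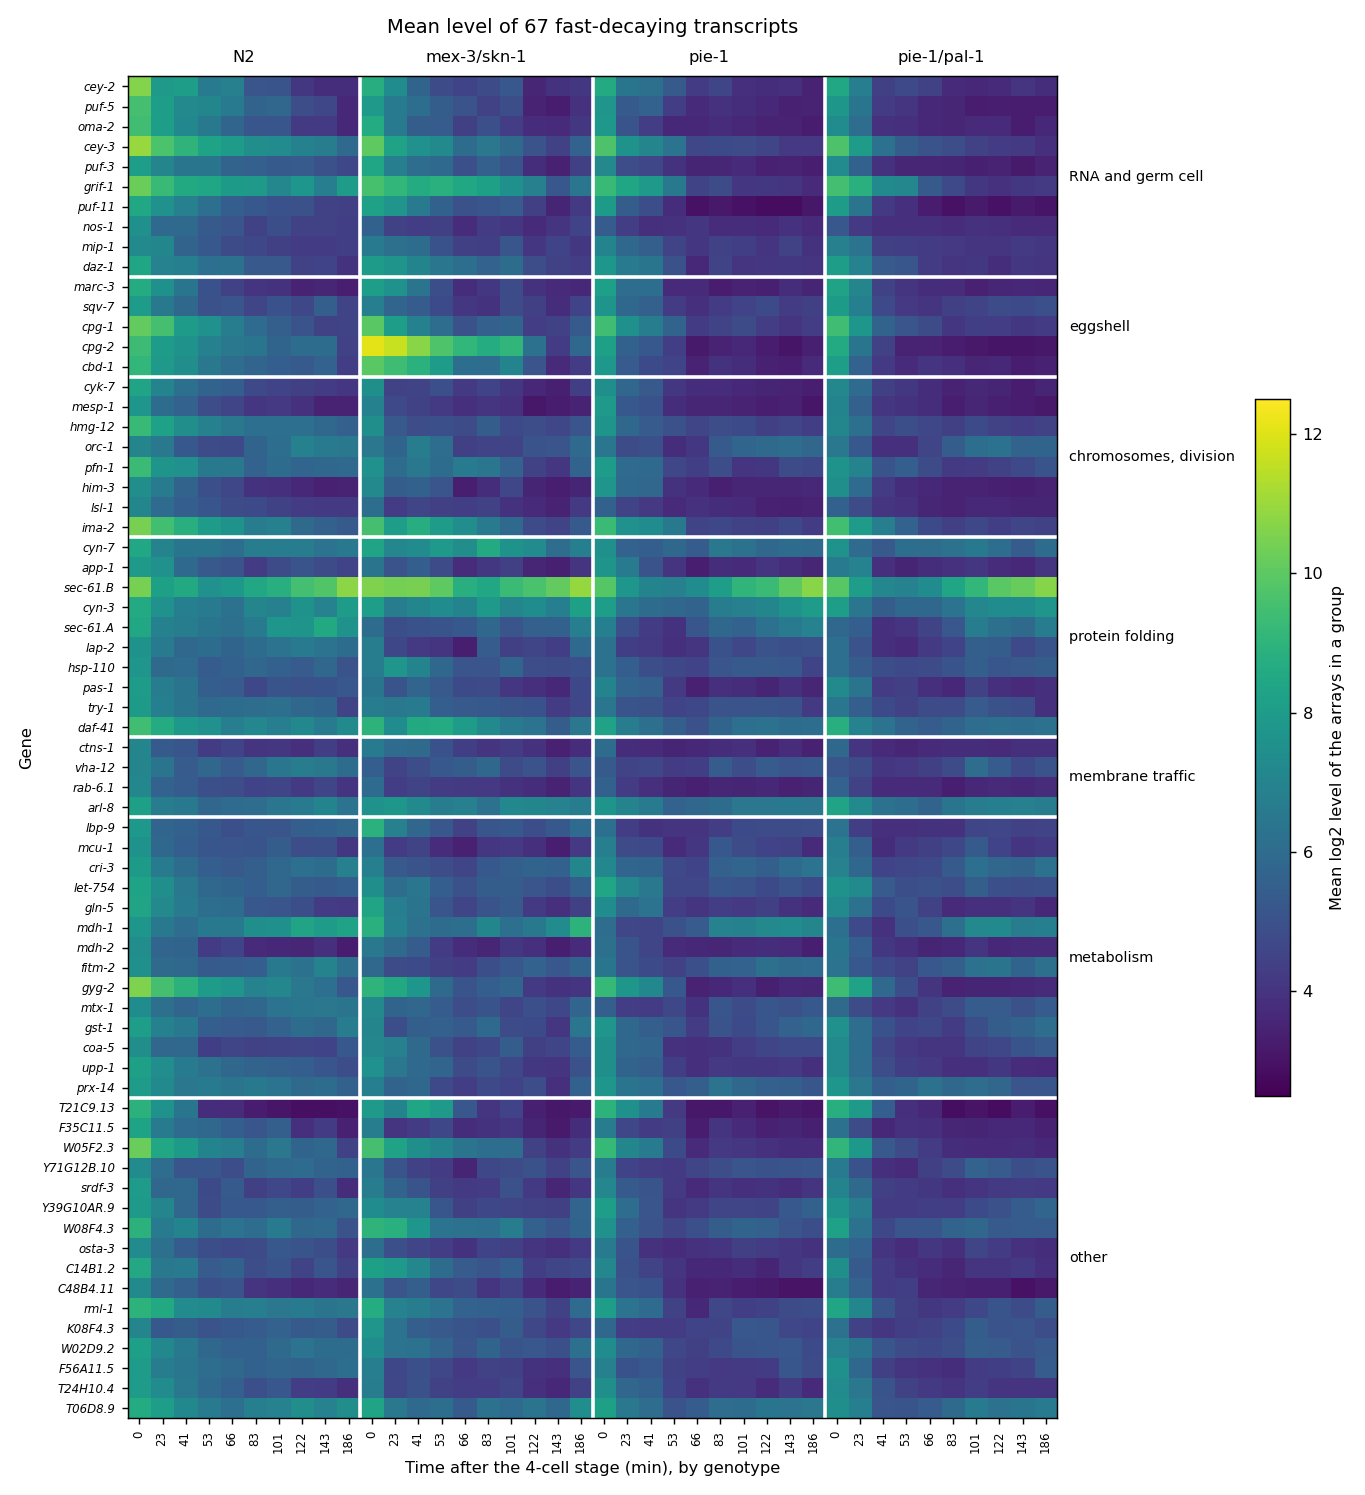
Mean log2 level (colour) of the 67 members (lines, grouped by role) at the 10 times after the 4-cell stage (columns, in min) in the 4 genotypes. Most lines darken over the first 53 min, cpg-2 is brightest in mex-3/skn-1 embryos at 0 min (12.10), and sec-61.B is bright again at 186 min (10.78 in N2).

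The brightest members in N2 at 0 min were cey-3 (10.95), cey-2 (10.63) and gyg-2 (10.56). The cey-2 arrays read 10.44, 10.62 and 10.84 at 0 min and 7.82, 8.02 and 8.34 at 41 min in N2. Those of oma-2 read 9.26, 9.26 and 9.76 and then 6.20, 7.61 and 7.66. In both genes the times do not overlap, as in all 67 members, which the rule chose on the means of these arrays. Of the other genes with a level of at least 7 at 0 min, 30.9% had no overlap either. At 41 min 1 oma-2 array lies well below the others. Of the members' probe sets 33 end in _at, 32 in _s_at, which can detect several transcripts, and 2 in _x_at, which can share probes with other genes. The related genes cyn-3 and cyn-7, cey-2 and cey-3, and puf-3 and puf-11 may thus share signal. Of 17 other probe sets for 14 members, 15 were at least 1 lower at 41 than at 0 min in N2. The other 2 were dim at 0 min, with 4.23 for cyn-7 and 3.72 for sec-61.B.

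In N2 the loss was under way at 23 min. All 67 members were below their 0 min mean at that time, 48 of them by at least 1, with a median difference of 1.26, but the 0 min arrays in this difference were used by the rule. The set's median level in N2 went from 8.12 at 0 min to 6.92 at 23, 6.39 at 41, 5.90 at 53 and 4.84 at 186 min. From 23 to 53 min, on arrays outside the rule, 38 of 67 members fell and none rose by limma's test (adjusted p under 0.05 over 22548 probe sets and at least 2-fold), where 3.81% of all probe sets fell and 2.04% rose. The median change was -1.13, and 66 of 67 changes were negative. Among the 1113 other genes with a level of at least 7 at 0 min, 19.6% fell. The genes named next for this change were chosen after their values were seen. T21C9.13 fell by 3.81 ± 0.35 (SE, adjusted p = 6.42e-15), from 7.33, 7.56, 7.69 and 7.81 to 3.44, 3.51, 3.82 and 4.40, with no overlap. The ubiquitin ligase gene marc-3 fell by 2.47 ± 0.29, the aminopeptidase gene app-1 by 2.27 ± 0.32, Y39G10AR.9 by 2.22 ± 0.26, cpg-1 by 1.99 ± 0.41 and mip-1 by 1.80 ± 0.23. At the other end stood mdh-1 (0.03 ± 0.38) and mtx-1, a metaxin of the mitochondrial outer membrane (-0.10 ± 0.31), which did not pass.

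**Figure D2:**
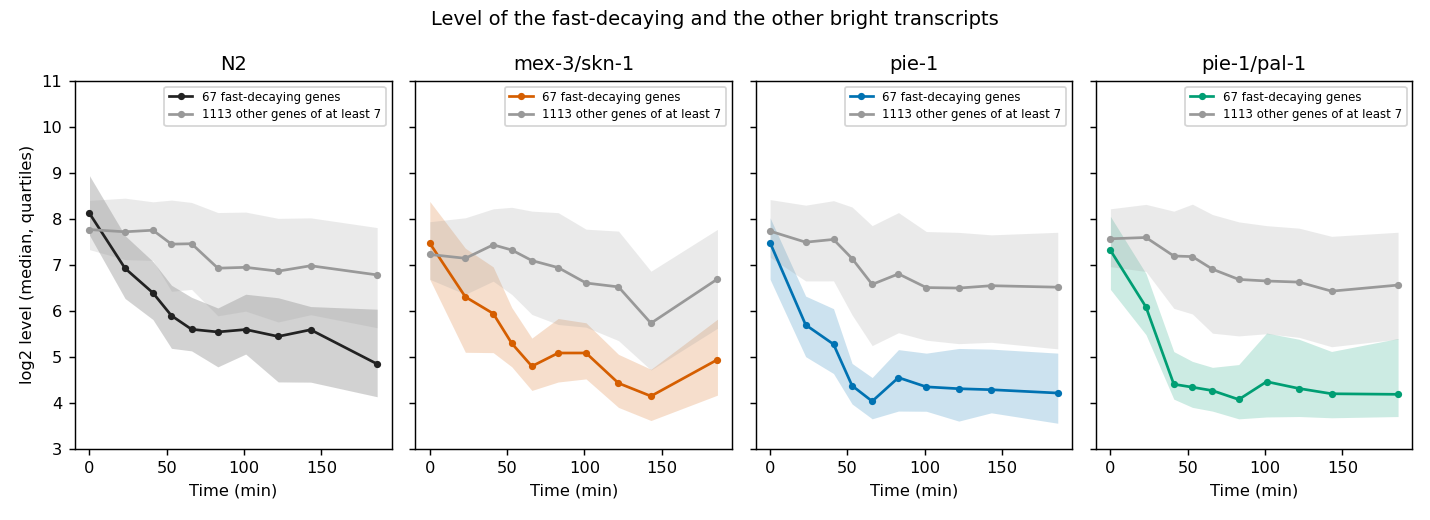
Median log2 level (lines) and quartiles (bands) over the 67 members and over the 1113 other genes with an N2 level of at least 7 at 0 min, against time in min, by genotype. At 53 min the members' median was 5.90 in N2, 5.29 in mex-3/skn-1 embryos, 4.37 in pie-1 embryos and 4.34 in pie-1/pal-1.

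The members' decay in each mutant was measured as the change from 0 to 41 min, on arrays that the rule did not use. In mex-3/skn-1 embryos 46 of 67 members fell and none rose, with a median change of -1.38, where 1.46% of all probe sets fell and 2.11% rose, and 6.29% of the other bright genes fell. In pie-1 embryos 65 fell and none rose, with a median of -2.05, where 3.36% of all probe sets fell and 1.15% rose, and 14.5% of the other bright genes fell. All 67 fell in pie-1/pal-1 embryos, with a median of -2.62, where 5.99% of all probe sets fell and 1.72% rose, and 31.2% of the other bright genes fell. There were 45 members called in all 3 mutants, where no more of all probe sets could be than the 1.46% of mex-3/skn-1 embryos. The 41 min arrays all lay below those of 0 min for 40 members in mex-3/skn-1 embryos (3 against 3 arrays), where 5.93% of all probe sets and 6.11% of the other bright genes did. They did for 66 members in pie-1 embryos (2 at 0 min against 3), beside 14.5% and 39.4%, and for 64 in pie-1/pal-1 (4 against 4), beside 7.29% and 30%, and with unequal array numbers these counts are not comparable between genotypes. Brighter probe sets, those whose mean was 5 or more, moved by a median of 0.33 in mex-3/skn-1 embryos, 0.02 in pie-1 embryos and -0.02 in pie-1/pal-1, and with arrays centred on them 54, 65 and 66 members fell. Without replicate 4 at 0 min, which leaves 1 array at that time, 43 members fell in pie-1 embryos. Within the scan day of pie-1/pal-1 replicates 3 and 4, whose pal-1 level was 6.15 and 5.55 at 41 min, all 67 members were lower at 41 min, 65 of them by at least 2-fold, with a median of -2.60. Within that of replicates 1 and 2 all 67 were lower by at least 2-fold, with a median of -2.71. The only such scan day of mex-3/skn-1, with 1 array against 2, had a median of -1.38. No test was made within scan days, and no share of all probe sets was counted there.

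**Figure D3:**
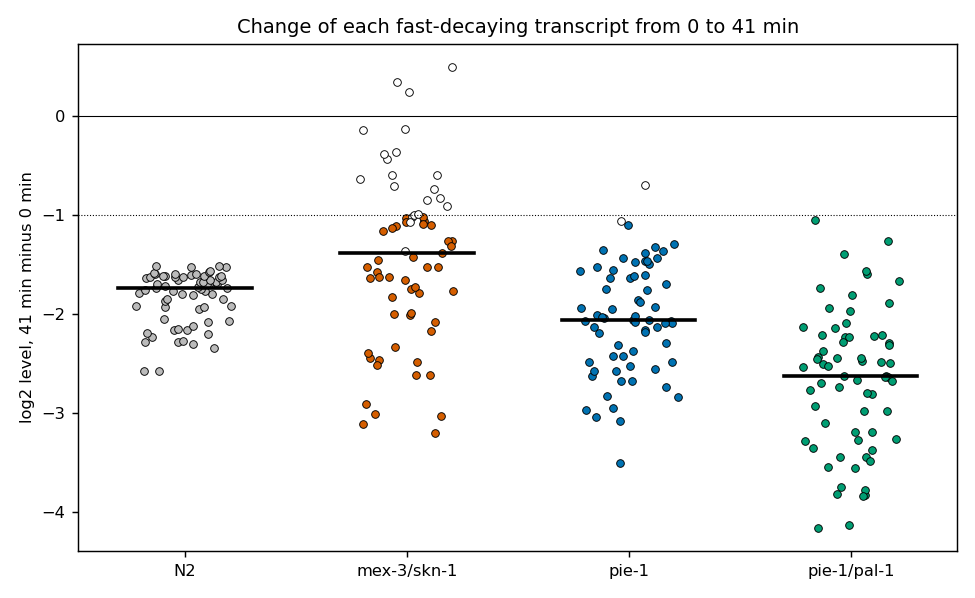
Change in log2 level from 0 to 41 min for each of the 67 members (points) by genotype, with the median as a bar. Grey N2 points were used to choose the genes and were not tested, coloured points fell by limma's test, open points were not called, and the dotted line marks a 2-fold fall. The medians are -1.74 in N2, -1.38 in mex-3/skn-1 embryos, -2.05 in pie-1 embryos and -2.62 in pie-1/pal-1.

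RNA integrity was followed by the log2 difference between the 3' and the 5' control probe sets of GAPDH. Its median at 0 and 41 min was 0.92 and 0.94 in N2, 1.50 and 1.65 in mex-3/skn-1, 1.01 and 1.06 in pie-1, and 1.44 and 1.33 in pie-1/pal-1 embryos. Replicate S of N2 at 41 min, a second hybridisation by its description file that was scanned on another day than the other two, was at 1.73 against 0.89 and 0.94. It was the lowest of the 3 arrays for oma-2 (6.20), puf-5 (6.37) and W05F2.3 (7.15), and its median over the members was 6.25 against 6.27 and 6.53. Without it the rule gave 58 genes, 50 of them members. Replicate 1 of N2 at 53 min was also a second hybridisation, at 0.41. With the GAPDH difference as a term in the fit 39 members fell in mex-3/skn-1 embryos, 63 in pie-1 embryos and 67 with pal-1(RNAi) added.

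The mutants' members were lower by 23 min as well. From 0 to 23 min 38 fell in mex-3/skn-1 embryos (1.9% of all probe sets), 57 in pie-1 embryos (2.17%) and 42 in pie-1/pal-1 (1.04%), with medians of -1.28, -1.73 and -1.21. The set's median level went from 7.47 at 0 min to 5.29 at 53 min in mex-3/skn-1, from 7.48 to 4.37 in pie-1 and from 7.32 to 4.34 in pie-1/pal-1 embryos. At 53 min 1 member was below a level of 4 in N2 and 1 in mex-3/skn-1, against 18 in pie-1 embryos and 22 in pie-1/pal-1. The median over all probe sets of an array was 3.24 to 3.41, so for these members little further fall could be measured.

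The largest falls to 41 min included genes of RNA control and of the eggshell. For pie-1/pal-1 embryos these were cpg-2 (-4.16 ± 0.43, adjusted p = 3.34e-13), cey-2 (-4.13 ± 0.39), cbd-1 (-3.84 ± 0.39), marc-3 (-3.82 ± 0.29), puf-11 (-3.81 ± 0.31) and W05F2.3 (-3.77 ± 0.34). The cpg-2 arrays there read 8.28, 8.56, 8.69 and 8.94 at 0 min and 3.57, 4.07, 4.50 and 5.68 at 41 min. Those of cey-2 read 7.13, 7.59, 9.51 and 9.84 and then 3.61, 4.09, 4.14 and 5.71. In both genes the times do not overlap. In pie-1 embryos oma-2 led (-3.50 ± 0.51, adjusted p = 1.9e-07), from 7.30 and 8.34 to 3.95, 4.13 and 4.89. It was followed by cbd-1 (-3.08 ± 0.50), puf-11 (-3.04 ± 0.39), cpg-2 (-2.96 ± 0.56), Y39G10AR.9 (-2.95 ± 0.33) and sec-61.B (-2.83 ± 0.40). In mex-3/skn-1 embryos oma-2 led too (-3.20 ± 0.45, adjusted p = 1.2e-07), from 7.82, 8.02 and 10.15 to 4.34, 5.97 and 6.08. It was followed by lbp-9 (-3.11 ± 0.35), cpg-1 (-3.02 ± 0.48), cey-2 (-3.01 ± 0.45), cyk-7, a gene of cytokinesis (-2.91 ± 0.38), and mdh-1 (-2.62 ± 0.43).

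The smallest falls included genes of proton transport, amino acid metabolism and chaperoning, and also the germ cell genes grif-1 and nos-1. In pie-1 embryos vha-12, a subunit gene of the vacuolar proton pump (-0.70 ± 0.47, adjusted p = 0.595), and gln-5 (-1.06 ± 0.41, adjusted p = 0.14) did not pass. The vha-12 arrays there read 4.89 and 5.76 at 0 min and 4.46, 4.51 and 4.91 at 41 min. In N2, on arrays that the rule used, they read 6.85, 7.03 and 7.31 at 0 min. Next came arl-8, a small GTPase gene of lysosomes (-1.10 ± 0.24), mtx-1 (-1.29 ± 0.41), grif-1 (-1.32 ± 0.40) and hsp-110 (-1.35 ± 0.40), which passed. Falling least in pie-1/pal-1 embryos were vha-12 (-1.05 ± 0.36), hsp-110 (-1.26 ± 0.31), nos-1 (-1.39 ± 0.25), lsl-1, a germline zinc finger gene (-1.56 ± 0.21), fitm-2, a gene of lipid droplets (-1.59 ± 0.31), and the trypsin-like try-1 (-1.66 ± 0.26). Of these, vha-12 went there from a mean of 5.12 to 4.07, nos-1 from 5.23 to 3.84 and lsl-1 from 5.61 to 4.05. The means of hsp-110 went from 6.15 to 4.89 and those of fitm-2 from 6.31 to 4.72. Whether the level at the start limited these falls was not tested. After quantile normalization hsp-110 no longer passed in pie-1 (-1.08) and pie-1/pal-1 embryos (-0.90), nor did mtx-1 in pie-1 (-0.94) and vha-12 in pie-1/pal-1 embryos (-0.88).

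By role, the median change from 0 to 41 min of the 10 RNA regulators and germ cell genes was -1.72 in mex-3/skn-1 embryos, -2.24 in pie-1 embryos and -3.40 in pie-1/pal-1, with 7, 10 and 10 of them called. For the 5 eggshell and activation genes the medians were -1.38, -2.68 and -3.82, with 3, 5 and 5 called. For the 8 genes of chromosomes and division they were -1.58 in mex-3/skn-1 embryos and -2.67 in pie-1/pal-1, with that of pie-1 embryos in between, with 6, 8 and 8 called. The 14 metabolic genes had medians of -1.47, -1.66 and -2.43, with 13, 13 and 14 called. The 10 genes of protein folding, translocation and proteolysis had medians of -0.72, -2.08 and -2.41, with 3, 10 and 10 called, and the 4 of membrane traffic -0.67, -1.42 and -1.99, with 1, 3 and 4 called. Of all 67 members 68.7%, 97% and 100% were called, beside 1.46%, 3.36% and 5.99% of all probe sets. Of the other bright genes 6.29%, 14.5% and 31.2% fell. With nearly all members called in pie-1 and pie-1/pal-1 embryos, the counts there do not set the roles apart. These groups are small, and no test between them was made.

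Lists of the maternal programme set the members among their relatives. The numbers of listed genes that fell from 0 to 41 min are given first for mex-3/skn-1 embryos, then for pie-1 embryos and last for pie-1/pal-1. Of 26 measured Pumilio, GLD, KH and RRM translation regulators 5 were members (puf-3, puf-5, puf-11, nos-1 and daz-1), and 7, 10 and 13 fell. Of these, puf-5 in pie-1/pal-1 embryos changed by -3.56 ± 0.36, puf-3 by -3.37 ± 0.36 and daz-1 by -2.70 ± 0.24. Of 30 germ granule and germ plasm genes 3 were members (cey-2, cey-3 and mip-1), and 4, 10 and 15 fell. There cey-3 changed by -3.44 ± 0.39 and mip-1 by -2.46 ± 0.23 in pie-1/pal-1 embryos. Of 29 genes of the eggshell, egg activation and yolk uptake 4 were members (cpg-1, cpg-2, cbd-1 and sqv-7), and 11, 10 and 15 fell. Among them cpg-1 changed in pie-1/pal-1 embryos by -3.74 ± 0.41 and sqv-7 by -3.26 ± 0.28. Of 19 maternal RNAs known to be kept in the germline 4 were members (cey-2, puf-5, cpg-2 and daz-1), and 4, 9 and 11 fell. These lists overlap, with cey-2 in 3 of them. Over all probe sets 1.46%, 3.36% and 5.99% fell, and over the other bright genes 6.29%, 14.5% and 31.2%, and of the listed genes 11 of 26, 12 of 30, 12 of 29 and 11 of 19 had a level of at least 7 at 0 min in N2. No test of the lists was made. Rises numbered 1, 0 and 0 in the first list, 2, 1 and 0 in the second, 2, 1 and 1 in the third and 1, 0 and 0 in the last. Over all probe sets 2.11%, 1.15% and 1.72% rose, and over the other bright genes 5.57%, 0.449% and 1.53%.

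Other lists held few members or none. Of 15 CCCH zinc finger RNA regulators oma-2 was the only member, and 3, 1 and 5 fell while 6, 5 and 5 rose. Of 25 Y-box and mRNA storage or decay genes cey-2 and cey-3 were members, and 3, 4 and 6 fell while 5, 0 and 1 rose. Of 28 meiotic chromosome genes him-3 was a member, with 3, 4 and 12 falling and 2, 0 and 0 rising, and of 22 heat shock and chaperone genes hsp-110 was a member, with 1, 5 and 5 falling and none rising. The change of him-3 was -3.19 ± 0.22 in pie-1/pal-1 embryos. No member was among the 35 cyclins, CDC25 and mitotic regulators (1, 2 and 4 fell, and 3, 1 and 1 rose), 29 ubiquitin ligase and F-box genes (0, 1 and 6 fell, and 4, 1 and 2 rose), 19 PAR polarity genes (1, 2 and 5 fell, and 3, 0 and 0 rose), 18 Argonautes (0, 1 and 6 fell, and none rose) and 23 maternal fate regulators (1, 0 and 2 fell, and 1, 0 and 1 rose). Of the 20 genes of the mother or sperm 0, 1 and 2 fell and none rose, and the 5 of later fates did neither. None of 58 ribosomal protein genes fell, and 25, 3 and 11 of them rose. Over all probe sets 1.46%, 3.36% and 5.99% fell, and 2.11%, 1.15% and 1.72% rose. Over the other bright genes 6.29%, 14.5% and 31.2% fell, and 5.57%, 0.449% and 1.53% rose. In the order named, 7, 8, 4, 8, 14, 7, 6, 2, 6, 0, 0 and 30 genes of these lists had an N2 level of at least 7 at 0 min. No test of these lists was made.

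Part of the set decayed less from 0 to 41 min in mex-3/skn-1 embryos than in pie-1/pal-1. The change was higher in mex-3/skn-1 for 31 of 67 members and lower for none, where 4.05% of all probe sets were higher and 0.55% lower, and 16.5% of the other bright genes were higher. The median difference was 1.27, against 0.38 for brighter probe sets. Without replicate 5 of mex-3/skn-1 at 0 min 18 members were called, and 20 without its replicate 1 at 41 min or after quantile normalization. By adjusted p these were led by Y39G10AR.9 (2.93 ± 0.39, adjusted p = 9.78e-08), T21C9.13 (3.78 ± 0.54), arl-8 (1.73 ± 0.28), daf-41 (2.14 ± 0.36), W08F4.3 (2.29 ± 0.39), pas-1 (2.38 ± 0.41), sec-61.B (2.66 ± 0.47) and orc-1 (2.91 ± 0.52). The W08F4.3 value rests on an _x_at probe set. A second probe set of that gene changed from 0 to 41 min by -1.83 in mex-3/skn-1 embryos and -1.72 in pie-1/pal-1, and so showed no such difference. A second one of arl-8 changed by -1.05 and -2.20.

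Against pie-1 embryos the change was higher in mex-3/skn-1 for 5 members and lower for none, where 0.581% of all probe sets were higher and 0.12% lower, and 2.25% of the other bright genes were higher. These were T21C9.13 (2.81 ± 0.61, adjusted p = 0.00723), sec-61.B (2.70 ± 0.53), Y39G10AR.9 (2.52 ± 0.45, adjusted p = 0.000362), daf-41 (1.70 ± 0.41) and ctns-1, the lysosomal cystine transporter gene (1.67 ± 0.40). Without replicate 5 of mex-3/skn-1 at 0 min, or without replicate 4 of pie-1 at 41 min, 2 were called, and without replicate 3 or replicate 4 of pie-1 at 0 min 3 were. Without the 6 arrays standing apart T21C9.13 (2.46), daf-41 (1.63) and ctns-1 (1.36) were not called. Nor was ctns-1 after quantile normalization or with the scan day as a block, or daf-41 with arrays centred on brighter probe sets. This comparison shares the mex-3/skn-1 arrays with the one before. Between pie-1/pal-1 and pie-1 embryos no member passed limma's test, where 0.151% of all probe sets did. At an unadjusted p under 0.05 there were 19 members, all lower in pie-1/pal-1, with no share of all probe sets counted at that limit. The smallest adjusted p was 0.113, for marc-3 (-1.82 ± 0.47). The median difference was -0.60 with 58 of 67 negative, beside -0.16 with 686 of 1113 negative among the other bright genes. Neither a difference nor like decay is thus shown. Without replicate 1 of pie-1/pal-1 at 41 min 1 member was called lower.

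In mex-3/skn-1 embryos 20 members that fell in both other mutants did not pass, a count with no share of all probe sets beside it. Not passing is no tested difference, and daz-1 (-0.997) and prx-14 (-0.991) missed the 2-fold limit only. Other probe sets of these members changed by -2.21 (cpg-2), -1.68 (daz-1), -1.05 (arl-8), -0.74 (cbd-1), -0.37 (hsp-110), and -0.16 and 0.02 (sec-61.B). The 6 highest changes to 41 min were those of T21C9.13 (0.50 ± 0.40), hsp-110 (0.34 ± 0.36), orc-1 (0.25 ± 0.39), try-1 (-0.13 ± 0.30), sec-61.B (-0.13 ± 0.35) and arl-8 (-0.36 ± 0.21). T21C9.13 read 7.19, 7.96 and 8.48 at 0 min, 6.98 and 7.04 at 23 min, 8.07, 8.34 and 8.71 at 41 min and 7.85 and 7.87 at 53 min on the mex-3/skn-1 arrays. In N2 it read 8.66, 9.08 and 9.09 at 0 min, 6.24, 6.33 and 6.55 at 41 min and 3.44, 3.51, 3.82 and 4.40 at 53 min. In pie-1/pal-1 embryos it read 8.52, 8.68, 8.83 and 8.99 at 0 min and 5.07, 5.13, 5.83 and 5.87 at 41 min. The mex-3/skn-1 arrays lie above those of pie-1/pal-1 at 41 min, having been below them at 0 min. They stand the same way to the N2 arrays, but the rule used those N2 arrays to choose the gene. By 66 min the mean of T21C9.13 was 5.20 in mex-3/skn-1 embryos, and at 186 min 3.22, next to 2.97 in N2.

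Genes of protein folding and translocation were among these members. The sec-61.B arrays of mex-3/skn-1 read 9.99, 10.80 and 10.97 at 0 min and 10.16, 10.43 and 10.76 at 41 min, and overlap. In pie-1 embryos they read 9.75 and 9.96 and then 6.52, 6.94 and 7.62, and do not overlap. These sec-61.B values rest on an _x_at probe set. A second _x_at probe set of the gene changed by -0.16 in mex-3/skn-1 embryos, -3.05 in pie-1 embryos and -2.80 in pie-1/pal-1. Its remaining probe set, an _at one that was dim in N2 at 0 min (3.72), changed by 0.02, -0.64 and -0.49. For daf-41 the mex-3/skn-1 arrays read 8.66, 8.81 and 9.41 at 0 min, 7.32 and 7.37 at 23 min and 8.33, 8.69 and 8.72 at 41 min, so the 23 min arrays are the lowest. In pie-1 embryos daf-41 read 8.10 and 8.44 at 0 min and 5.87, 5.98 and 6.71 at 41 min. For orc-1 the mex-3/skn-1 arrays read 6.02, 6.28 and 7.06 at 0 min and 6.06, 6.93 and 7.10 at 41 min. In pie-1/pal-1 embryos orc-1 read 5.48, 6.57, 6.72 and 7.31 and then 3.25, 3.49, 4.34 and 4.35, without overlap.

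**Figure D4:**
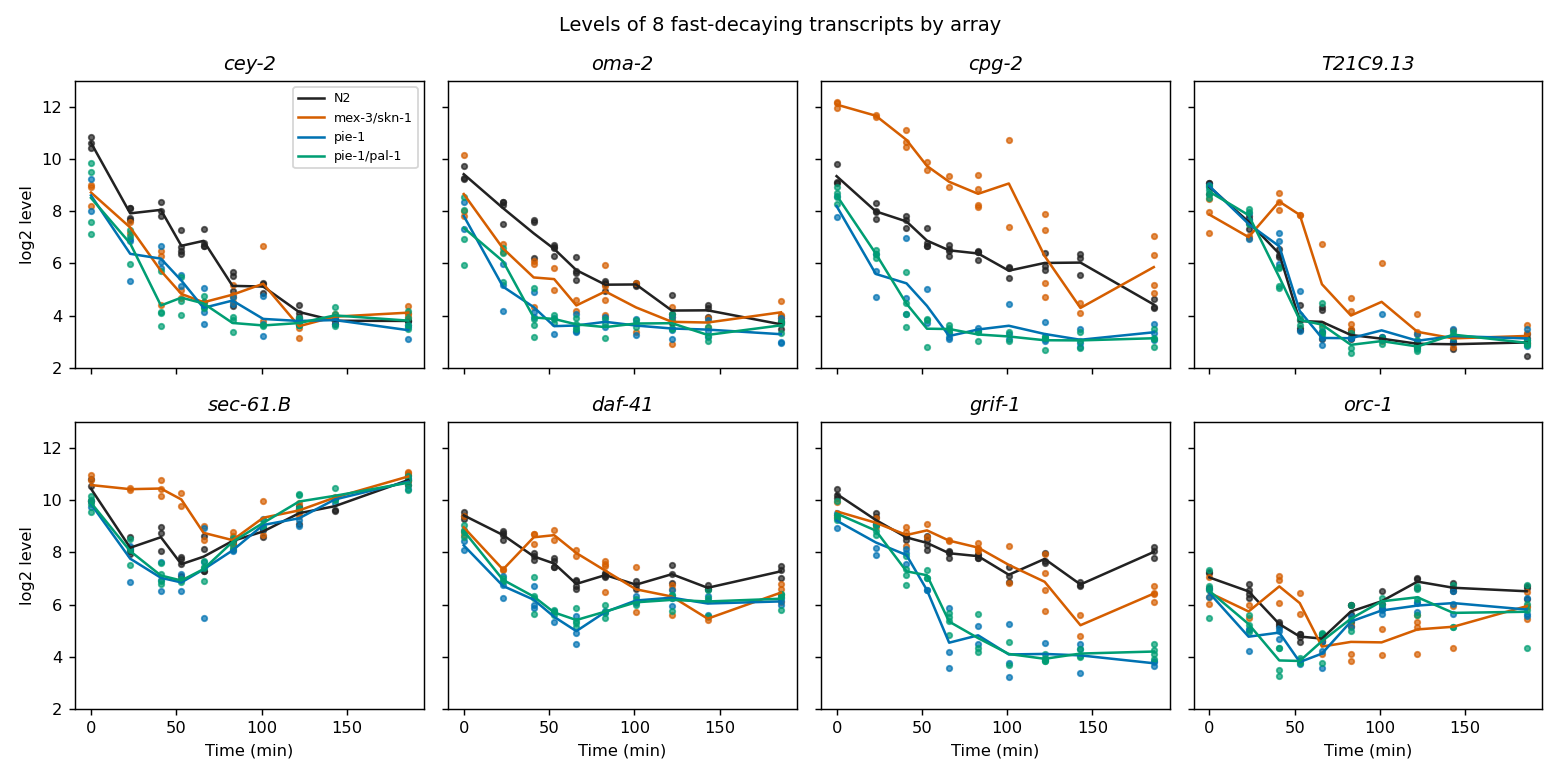
Log2 level of 8 members against time in min, with a point for each array and a line through the group means, in the 4 genotypes. T21C9.13, sec-61.B and daf-41 are highest in mex-3/skn-1 embryos at 41 and 53 min, cpg-2 starts there at 12.10, and grif-1 ends at 8.02 in N2 against 6.42 in mex-3/skn-1 embryos, 3.75 in pie-1 embryos and 4.20 in pie-1/pal-1.

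The change from 23 to 53 min was compared with that of N2 on arrays outside the rule, and the 3 comparisons share the N2 arrays. In mex-3/skn-1 embryos it was higher than in N2 for 8 members and lower for 1, where 3.22% and 0.315% of all probe sets and 11% and 0.449% of the other bright genes were. The 8 were T21C9.13 (4.66 ± 0.61, adjusted p = 6.14e-08), daf-41 (2.41 ± 0.41), gst-1, a glutathione transferase gene (2.09 ± 0.46), cyn-3 (1.60 ± 0.43), app-1 (2.02 ± 0.56), him-3 (1.36 ± 0.38), orc-1 (2.05 ± 0.59) and cyk-7 (1.83 ± 0.57). W08F4.3 was lower (-1.92 ± 0.45, adjusted p = 0.00359). Its mex-3/skn-1 arrays read 8.76 and 8.90 at 23 min and 6.02 and 6.61 at 53 min, against 6.42, 6.60, 6.64 and 6.92 and then 5.98, 5.99, 5.99 and 6.26 in N2. The second probe set of W08F4.3 differed by -0.54, and a second one of him-3 by -0.23, opposite in direction to the first. Brighter probe sets were higher by a median of 0.43 in this comparison. After quantile normalization 3 members were higher and 1 lower, and with arrays centred on brighter probe sets 5 were higher and 3 lower. With a replicate block as many were lower as higher, and the members' median difference turned negative. The count of 9 became 3 without replicate 1 of mex-3/skn-1 at 23 min, and 5 and 4 without replicates 4 and 6 at 53 min. For pie-1 and pie-1/pal-1 embryos no member passed limma's test, where 0.00443% and 0.0222% of all probe sets did, with 2 and 11 members at an unadjusted p under 0.05. No share of all probe sets was counted at that unadjusted limit. The smallest adjusted p was 1 for pie-1 and 0.517 for pie-1/pal-1 embryos, and the median differences were 0.02 and -0.50.

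At 53 min most members were below N2 in both genotypes that lack PIE-1. In pie-1 embryos 46 of 67 were lower and none higher, where 4.62% of all probe sets were lower and 0.47% higher and 16.6% of the other bright genes were lower, with a median difference of -1.40. By adjusted p these were led by daf-41 (-2.05 ± 0.29, adjusted p = 6.47e-07), rml-1 (-2.82 ± 0.41), gyg-2 (-2.77 ± 0.42), puf-5 (-2.79 ± 0.44), puf-11 (-2.35 ± 0.37), upp-1 (-1.92 ± 0.31), oma-2 (-2.96 ± 0.48) and lsl-1 (-1.47 ± 0.26). With pal-1(RNAi) added 41 were lower and none higher, where 6.51% of all probe sets were lower and 0.909% higher and 21.5% of the other bright genes were lower, with a median of -1.24. Leading there were gyg-2 (-3.13 ± 0.37, adjusted p = 2.34e-09), puf-5 (-3.08 ± 0.39), rml-1 (-2.85 ± 0.36), daf-41 (-1.88 ± 0.25), puf-3 (-2.78 ± 0.38), cpg-2 (-3.38 ± 0.47), upp-1 (-1.93 ± 0.27) and puf-11 (-2.31 ± 0.33). For puf-5 the arrays read 7.08, 7.09, 7.09 and 7.16 in N2, 3.63 and 5.01 in pie-1 embryos and 3.75, 3.92 and 4.39 in pie-1/pal-1, and both mutants lie below N2. Its means at 0 min were 9.56 in N2, whose 0 min arrays the rule used, 7.71 in pie-1 embryos and 7.79 in pie-1/pal-1. The set's median level was below that of N2 at 0 min too, so these differences do not measure loss after 0 min alone.

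These levels are set across scan days, and the members were chosen for being high in N2. Brighter probe sets differed from N2 at 53 min by medians of -0.39 in pie-1 embryos and -0.35 in pie-1/pal-1. The GAPDH 3' to 5' difference was 0.41 to 0.56 in N2 at that time, against 1.28 to 1.53 in mex-3/skn-1, 0.80 to 1.78 in pie-1 and 1.35 to 1.61 in pie-1/pal-1 embryos. With it as a term 25 members were called lower in pie-1 embryos and 31 in pie-1/pal-1. In pie-1 embryos 25 were also called after quantile normalization or without replicate 3, the array with high pal-1, and 28 without replicate 2. At 66 min lsl-1 differed in pie-1 embryos by -0.88 and was not called.

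Against N2 at 53 min, mex-3/skn-1 embryos had 10 members lower and 7 higher, where 3.94% and 1.66% of all probe sets and 11.8% and 7.28% of the other bright genes were. Higher were T21C9.13 (4.07 ± 0.43, adjusted p = 5.69e-12), cpg-2 (2.86 ± 0.53), sec-61.B (2.48 ± 0.38), cyn-7 (1.50 ± 0.35), cbd-1 (1.49 ± 0.48), orc-1 (1.28 ± 0.42) and daf-41 (1.09 ± 0.29). At 66 min orc-1 differed by -0.31, and cbd-1 (0.04) and sec-61.B (0.92) were no longer called. The lower ones were led by prx-14, a peroxisome import gene (-1.91 ± 0.34, adjusted p = 3.9e-05), hmg-12, a gene of an HMG protein (-1.95 ± 0.37), T24H10.4 (-1.44 ± 0.29), gyg-2 (-2.06 ± 0.42), lap-2, an aminopeptidase gene (-2.05 ± 0.47), F56A11.5 (-1.44 ± 0.34), mcu-1 (-1.40 ± 0.34) and cey-2 (-1.85 ± 0.48). The eggshell gene cpg-2 was high in mex-3/skn-1 embryos from the start, at 11.95, 12.14 and 12.20 at 0 min against 9.10, 9.14 and 9.82 in N2. At 53 min it read 9.57 and 9.91 against 6.68, 6.68, 6.80 and 7.34 in N2, and the genotypes overlap at neither time. Without replicate 4 of mex-3/skn-1 at 53 min 7 members were called, 3 lower and 4 higher, and with the GAPDH difference as a term 4 were lower and 7 higher.

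Some members went on falling after 53 min and others rose. Between 53 and 186 min 27 members fell in N2 and 7 rose, where 7.74% and 6.12% of all probe sets did. In mex-3/skn-1 embryos 19 fell and 6 rose (5.69% and 5.82%). There were 5 falls and 9 rises in pie-1 embryos (5.95% and 5.85%), and 8 falls and 16 rises in pie-1/pal-1 (5.05% and 7.41%). Among the other bright genes 38.5% fell and 9.16% rose in N2, 32.3% and 8.89% in mex-3/skn-1 embryos, 34.3% and 11.9% in pie-1 embryos and 31.9% and 10.4% in pie-1/pal-1. The members that rose made up 10.4%, 8.96%, 13.4% and 23.9%, which is near those shares except in pie-1/pal-1 embryos. With arrays centred on brighter probe sets 24 members fell and 11 rose in N2, and 18 and 10 in mex-3/skn-1 embryos. Without replicate 4 of mex-3/skn-1 at 53 min 14 fell and 2 rose there. With a replicate block more members rose than fell in these embryos. Replicate 5 of mex-3/skn-1 at 186 min is given 143 min in its description file, and without it 20 fell and 5 rose. Of the 16 members that rose in any genotype 2 rose in all 4, mdh-1 and cri-3, and 3 members fell in all 4, cey-3, gyg-2 and ima-2. These joint counts have no share of all probe sets beside them and are not read as particular to the members.

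The late rises included genes of secretion, metabolism and protein folding. In N2 they were sec-61.B (3.23 ± 0.33, adjusted p = 7.32e-14), orc-1 (1.74 ± 0.37), mdh-1 (1.70 ± 0.41), cyn-3 (1.41 ± 0.27), cri-3 (1.37 ± 0.31), gst-1 (1.23 ± 0.29) and Y39G10AR.9 (1.07 ± 0.28). The sec-61.B arrays of N2 read 7.10, 7.54, 7.73 and 7.82 at 53 min and 10.60, 10.75 and 10.98 at 186 min, against 9.97, 10.56 and 10.81 at 0 min. Its levels at the first and the last time overlap, and those at 53 min lie below both. The sec-61.B values rest on an _x_at probe set, which can share probes with other genes. In pie-1 embryos sec-61.B (3.87 ± 0.40), sec-61.A (2.95 ± 0.65), cyn-3 (2.14 ± 0.32), mdh-1 (2.08 ± 0.49), orc-1 (2.01 ± 0.44) and cri-3 (1.59 ± 0.37) led. In pie-1/pal-1 embryos sec-61.B (3.75 ± 0.33), sec-61.A (2.66 ± 0.55), orc-1 (1.89 ± 0.37), mdh-1 (1.87 ± 0.41), cyn-3 (1.84 ± 0.27) and fitm-2 (1.73 ± 0.33) led. In mex-3/skn-1 embryos mdh-1 (2.92 ± 0.46, adjusted p = 2.92e-07), cri-3 (2.24 ± 0.35), lap-2 (1.93 ± 0.47), sec-61.A (1.69 ± 0.62), fitm-2 (1.35 ± 0.38) and T06D8.9 (1.29 ± 0.38) rose, and sec-61.B was not called (0.88 ± 0.38). By the roles, which were given after the values were seen, 0 of the 10 RNA regulators and germ cell genes and 0 of the 5 eggshell genes rose in any genotype, where 5.82% to 7.41% of all probe sets rose. Counts of 0 in groups this small are near that share. Of the 14 metabolic genes 3 rose in N2, mex-3/skn-1 and pie-1 embryos each and 6 in pie-1/pal-1. No test between roles was made.

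**Figure D5:**
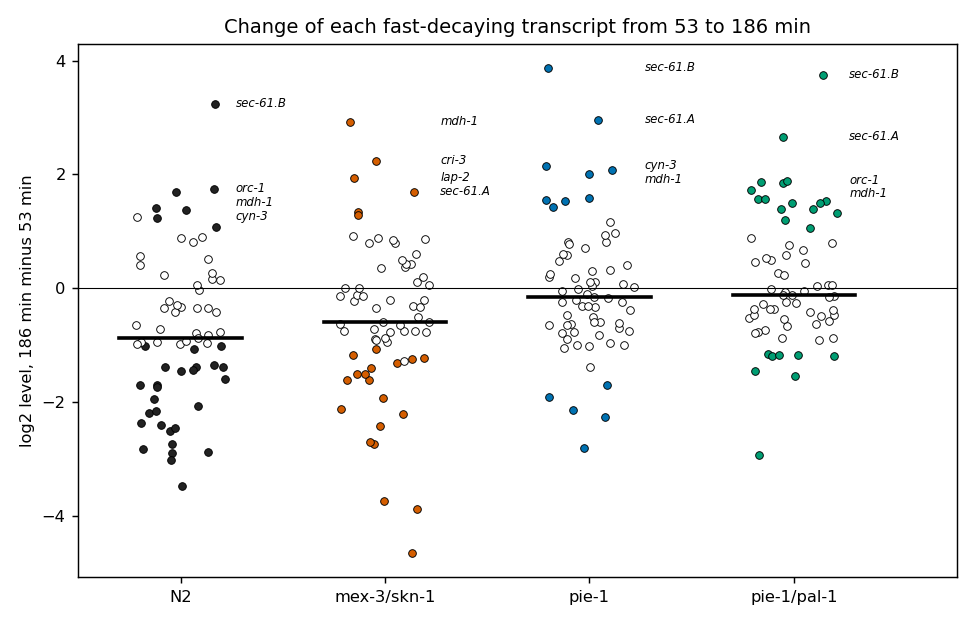
Change in log2 level from 53 to 186 min for each of the 67 members (points) by genotype, with the median as a bar and the names of the 4 largest called rises. Filled points were called by limma's test and open points were not. The medians are -0.88 in N2, -0.59 in mex-3/skn-1 embryos, -0.15 in pie-1 embryos and -0.11 in pie-1/pal-1.

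The germ cell gene grif-1, singled out after its values were seen, kept a high level in N2 after its first loss. It read 10.09, 10.22 and 10.42 at 0 min, 8.46, 8.63 and 8.63 at 41 min, 8.10, 8.27, 8.47 and 8.62 at 53 min and 7.79, 8.05 and 8.21 at 186 min in N2, and its change from 53 to 186 min was -0.35 ± 0.33 and was not called. In the mutants it fell over that time, by 2.42 ± 0.38 in mex-3/skn-1 embryos, 2.81 ± 0.40 in pie-1 embryos and 2.93 ± 0.33 in pie-1/pal-1. At 186 min the arrays read 6.09, 6.41, 6.46 and 6.72 in mex-3/skn-1 embryos, 3.63, 3.79 and 3.82 in pie-1 embryos and 3.93, 4.08, 4.27 and 4.50 in pie-1/pal-1, all below the N2 arrays. The difference of these late changes between genotypes was not tested.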

How the data were processed

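Staged C. elegans embryos were hybridised, as total RNA, to 123 Affymetrix arrays, per the labels. The authors' deposited table holds log2 values for 22625 probe sets (1.79 to 12.72). That the scale is log2 was read from the values, and the background correction and normalization are not given in the sources used here. The precision is limited by the 2 to 4 arrays per group, whose medians were 3.24 to 3.41. After 77 control probe sets were left out, 22548 were tested with no further normalization. The platform annotation gave 1 gene symbol to 20766 of them, several to 887 and none to 895, and its symbols can be old.

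Arrays were grouped by the genotype and time of their labels. The description files of 2 arrays give 143 min where the labels give another time (replicate 5 of mex-3/skn-1 at 186 min and replicate 5 of pie-1/pal-1 at 122 min), and the labels were used. In R 4.3.3, limma 3.58.1 was fitted to 40 group means (83 residual degrees of freedom) with Benjamini-Hochberg adjustment over all probe sets. The test was two-sided, and a call needed both an adjusted p below 0.05 and a 2-fold change. Tables and figures were made with Python 3.11.15, pandas 2.3.3 and matplotlib 3.10.9. The fit was tested on simulated data with 200 changed probe sets: for the mex-3/skn-1 change from 0 to 41 min it recovered 93% of those changed by 1.5 and 99% of those changed by 3 log2 units, with 6 false calls. For the difference in that change between pie-1/pal-1 and pie-1 embryos it recovered 85% and 98%, with 8 false calls. The simulated noise was independent between arrays and probe sets, without shifts shared over an array, so these rates need not hold for the real arrays.

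The members, roles and gene lists were chosen with earlier results of these data known. Named are the 12 largest N2 falls, the genes at the limits of the rule, the 6 largest and 6 smallest falls per mutant, up to 8 called members per direction of each difference, up to 6 late rises per genotype, up to 5 members per list and the targeted genes. Alternatives were quantile normalization, centring on the array median or on brighter probe sets, a minimum mean of 4, no fold minimum, a variance trend, a replicate block, 66 in place of 53 min, other limits of the rule, each array left out and, chosen after seeing the data, the scan day as a block, a GAPDH term, the arrays standing apart left out and the change from 0 to 23 min.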

Additional observations from a re-analysis of the deposited data

Results flagged for a closer look

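The members' median and the levels of 8 members were tested within groups of 4 arrays, in 60 tests in all. In 4 of these an array lay far from the others by Dixon's criterion, where chance gives about 1 in 20. One N2 array at 23 min had a members' median of 6.86, and oma-2 stood apart at 7.53 on an N2 array at 23 min, at 3.32 on a pie-1/pal-1 array at 186 min and at 4.57 on a mex-3/skn-1 array at 186 min.

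The change from 0 to 41 min differed between mex-3/skn-1 and pie-1 embryos for 5 members by limma's test of the difference. It was higher in mex-3/skn-1 by 2.52 for Y39G10AR.9, 2.70 for sec-61.B, 2.81 for T21C9.13, 1.67 for ctns-1 and 1.70 for daf-41. Against pie-1/pal-1 embryos 31 members differed, among them Y39G10AR.9 (2.93), T21C9.13 (3.78), arl-8 (1.73), daf-41 (2.14), W08F4.3 (2.29), pas-1 (2.38), sec-61.B (2.66) and orc-1 (2.91). Without replicate 5 of mex-3/skn-1 at 0 min these counts were 2 and 18.

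The change from 23 to 53 min differed between mex-3/skn-1 and N2 for 9 members. W08F4.3 was lower (-1.92), and T21C9.13 (4.66), daf-41 (2.41), gst-1 (2.09), cyn-3 (1.60), app-1 (2.02), him-3 (1.36), orc-1 (2.05) and cyk-7 (1.83) were higher. Without replicate 1 of mex-3/skn-1 at 23 min the count was 3.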

How the results depend on the processing

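The members called lower from 0 to 41 min numbered 34 to 54 in mex-3/skn-1, 62 to 65 in pie-1 and 65 to 67 in pie-1/pal-1 embryos over the alternatives that kept every array or dropped those standing apart. Leaving out each array in turn gave 33 to 51, 43 to 65 and 66 to 67, with median changes of -1.77 to -1.12, -2.21 to -1.85 and -2.75 to -2.45. For the differences of this change the counts ran from 2 to 7 (mex-3/skn-1 against pie-1), 0 to 1 (the genotypes without PIE-1) and 18 to 36 (pie-1/pal-1 against mex-3/skn-1). Leaving out arrays gave 36 to 40 for N2 from 23 to 53 min, and 3 to 10 (mex-3/skn-1), 0 to 0 (pie-1) and 0 to 0 (pie-1/pal-1) for the difference from N2 in that change. It gave 7 to 15, 25 to 48 and 39 to 46 for levels against N2 at 53 min, and 34 to 37 (N2), 16 to 25 (mex-3/skn-1), 12 to 17 (pie-1) and 22 to 25 (pie-1/pal-1) from 53 to 186 min. The set itself held 58 to 85 genes with 1 array of the rule left out, 214 with a fall of at least 1, 17 with at least 2 and 40 with a level of at least 8.

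Without the 6 arrays standing apart, 2 members differed in decay between mex-3/skn-1 and pie-1, and 2 between pie-1/pal-1 and pie-1 embryos, where a minimum mean of 4 gave 1. Quantile normalization gave 20 for pie-1/pal-1 against mex-3/skn-1, 4 for mex-3/skn-1 against N2 from 23 to 53 min and 25 for pie-1 against N2 at 53 min. With the GAPDH term 11 members differed at 53 min in mex-3/skn-1 and 25 in pie-1 embryos. At 66 in place of 53 min 26 differed in mex-3/skn-1 (22 lower and 4 higher), and orc-1 reversed to -0.31. The causes were not tested.

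Replicate numbers did not pair the arrays by the criterion used: between 0 and 41 min in pie-1/pal-1 embryos 1 of the same-number correlations was 0.0989, although 4 of 4 arrays correlated best with their own number. A replicate block gave 34, 65 and 67 falls to 41 min, and 6, 2 and 33 differences of that change. It gave 38 for N2 from 23 to 53 min, 4, 0 and 0 for the differences from N2, and 35, 19, 16 and 23 from 53 to 186 min. In mex-3/skn-1 embryos it turned the balance of directions: from 53 to 186 min 8 members were lower and 11 higher, with a median of 0.05 in place of -0.59, and for the difference from N2 from 23 to 53 min 2 were lower and 2 higher, with a median of -0.41 in place of 0.41. Neither this block nor the scan day gives a value for levels against N2 at 53 min, since both are nested in genotype. Levels near 3.4 are at the floor of the arrays and limit any later fall.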
